A study of Mus musculus with 6 samples.

Results

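Transcription factors of the first nephrons were examined in whole embryonic kidneys of mice at embryonic day 12.5: Pax2, Pax8, Lhx1, Osr2, Irx1, Irx2, Irx3 and Pou3f3. The members are the 11 probe sets, of 45101 on the Affymetrix mouse genome array, whose single gene symbol in the platform annotation is one of these 8 names. They stand for 7 genes, since no probe set carried Pax2 as its single symbol and Pax2 is not analysed here. A further probe set that names Pou3f3 together with another transcript was not used. The study compared 3 Ret-deficient kidney samples with 3 wild-type kidney samples, all of the C57BL/6 strain and each on 1 array. The Ret deficiency is stated of the kidneys in the titles and genotype fields and of the pregnant female in the source field. The Ret allele, the litters and the number of embryos in a sample are not given in the labels.

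Pax2 and Pax8 are paired-domain factors that specify the kidney lineage. Lhx1, a LIM homeodomain factor, is active in the nephric duct and ureteric bud and again in the first epithelial vesicles of the nephron, which form when Wnt9b from the bud and then Wnt4 in the mesenchyme induce nephron progenitors. In the vesicle and the bodies that grow from it, Notch signalling helps to pattern the segments, and Irx1, Irx2, Irx3, Osr2 and Pou3f3 (Brn1) are among the factors of that patterning. Ret is the receptor of the bud for GDNF, and without it the bud fails to form or branches poorly.

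The sequences just upstream of the start sites of Lhx1 and Pou3f3 are shown because these members had parallel signals across the arrays. Each runs from 250 bases before the RefSeq start site up to it (build GRCm38.p6), with the CCAAT box (CCAAT, or ATTGG on the other strand) and the GC box (GGGCGG, or CCGCCC) in capitals. The Lhx1 window lies at chr11:84525535-84525784 on the minus strand, and the Pou3f3 window at chr1:42695518-42695767 on the plus strand.
Lhx1: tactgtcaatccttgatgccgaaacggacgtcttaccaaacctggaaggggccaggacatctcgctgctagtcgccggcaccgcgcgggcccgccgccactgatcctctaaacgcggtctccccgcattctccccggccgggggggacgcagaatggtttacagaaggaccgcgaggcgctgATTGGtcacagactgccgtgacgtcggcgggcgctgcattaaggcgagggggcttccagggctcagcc
Pou3f3: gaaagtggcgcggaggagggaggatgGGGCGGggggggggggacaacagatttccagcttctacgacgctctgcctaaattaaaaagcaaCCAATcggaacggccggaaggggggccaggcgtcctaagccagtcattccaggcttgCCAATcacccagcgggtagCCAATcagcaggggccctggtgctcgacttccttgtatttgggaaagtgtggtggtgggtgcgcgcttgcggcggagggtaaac
The Lhx1 window holds 1 CCAAT box, beginning at -68, and no GC box. The Pou3f3 window holds 3 CCAAT boxes, beginning at -160, -103 and -84, and 1 GC box at -224. Of 32851 windows of this length in RefSeq, 33.8% hold a CCAAT box and 32.7% a GC box on either strand. The windows also differ in CG dinucleotides, with 26 for Lhx1 and 15 for Pou3f3 against a median of 6 over all windows. No TATA box (TATAAA, 12.4% of windows) or TCF/LEF motif (CTTTGAT, 3.2%) was found in either window, both strands searched. Of the 7 measured members 5 had a RefSeq window.

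Every array had been scaled by the authors to a mean signal of 2500 after trimming 2 percent at each end, with array medians of 258.9 to 351.6. Background was gauged by the brightest of 27 bacterial control probe sets, at 97.2 to 186.9 depending on the array. Ret (1436359_at) checked the labels: it read 93.3, 479.8 and 334.1 in Ret-deficient kidneys 1, 2 and 3, against 10192.8 to 13315.2 in wild-type kidneys. On the scale log2(signal + 16), Ret-deficient minus wild-type, it differed by -5.425 (SE 0.532), with adjusted p = 0.51 in limma. That was the smallest adjusted p of all tested probe sets, so even Ret did not pass 0.05. A failed adjusted test therefore does not show that a gene was unchanged. Markers of kidney nephron progenitors were present throughout: the 12 of the list summed to 54628 to 80762 in Ret-deficient and 61607 to 79810 in wild-type kidneys, and none was at or below the control on any array. The ureteric epithelium, the bud and its branches, differed between the Ret-deficient samples before any member is considered. The summed signal of its 17 markers was 6714, 67583 and 53795 in Ret-deficient kidneys 1, 2 and 3, against 73085 to 89134 in wild-type kidneys. Of the 17, 9, 2 and 3 were at or below the bacterial control in Ret-deficient kidneys 1, 2 and 3. In wild-type kidneys 1, 2 and 3 these counts were 3, 1 and 1. In whole-kidney RNA, fewer cells of a type and less RNA per cell cannot be told apart.

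Lhx1 and Pou3f3 were lower in all 3 Ret-deficient kidneys than in any wild-type kidney, but neither passed a test adjusted over the array. Lhx1 (1450428_at) read 5.0, 1112.7 and 1242.0 in Ret-deficient kidneys 1, 2 and 3, against 2246.5, 3141.7 and 2796.9 in wild-type kidneys. In Ret-deficient kidney 1 it was below that array's bacterial control of 128.2, and on the other 5 arrays it was above. Lhx1 averaged 786.6 ± 679.9 in Ret-deficient and 2728 ± 452 in wild-type kidneys (signal ± SD, n = 3 each). The log2 difference of Lhx1, Ret-deficient minus wild-type on the scale log2(signal + 16), was -3.13 (SE 1.499, 95% interval -6.70 to 0.43), with adjusted p = 0.931 in limma. That difference takes the reading of 5.0 at face value. With signals at or below an array's bacterial control raised to it (a choice made with the data in view) the log2 difference was -2.21 (SE 0.79), with adjusted p = 0.889 in limma.

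Pou3f3, a POU factor of the distal part of the vesicle and later of the loop of Henle, followed the same order of arrays. Its brighter probe set (1435197_at) read 177.5, 3025.4 and 3600.4 in Ret-deficient kidneys 1, 2 and 3, against 5938.2, 9432.5 and 8147.4 in wild-type kidneys. The highest Ret-deficient value was thus below the lowest wild-type value, and the value of Ret-deficient kidney 1 was little above its control of 128.2. The log2 difference of Pou3f3 was -2.58 (SE 1.07, 95% interval -5.13 to -0.04), with adjusted p = 0.922 in limma and an unadjusted p of 0.0471, a level under 0.05 that 5.37% of tested probe sets reached. For Lhx1 and for Pou3f3 an exact two-sided permutation test returned p = 0.1, the smallest value that 3 arrays against 3 can give. Groups that do not overlap in the lower direction were found at 1248 of the tested probe sets, or 5.54%, and in either direction at 10.7%.

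**Figure D1:**
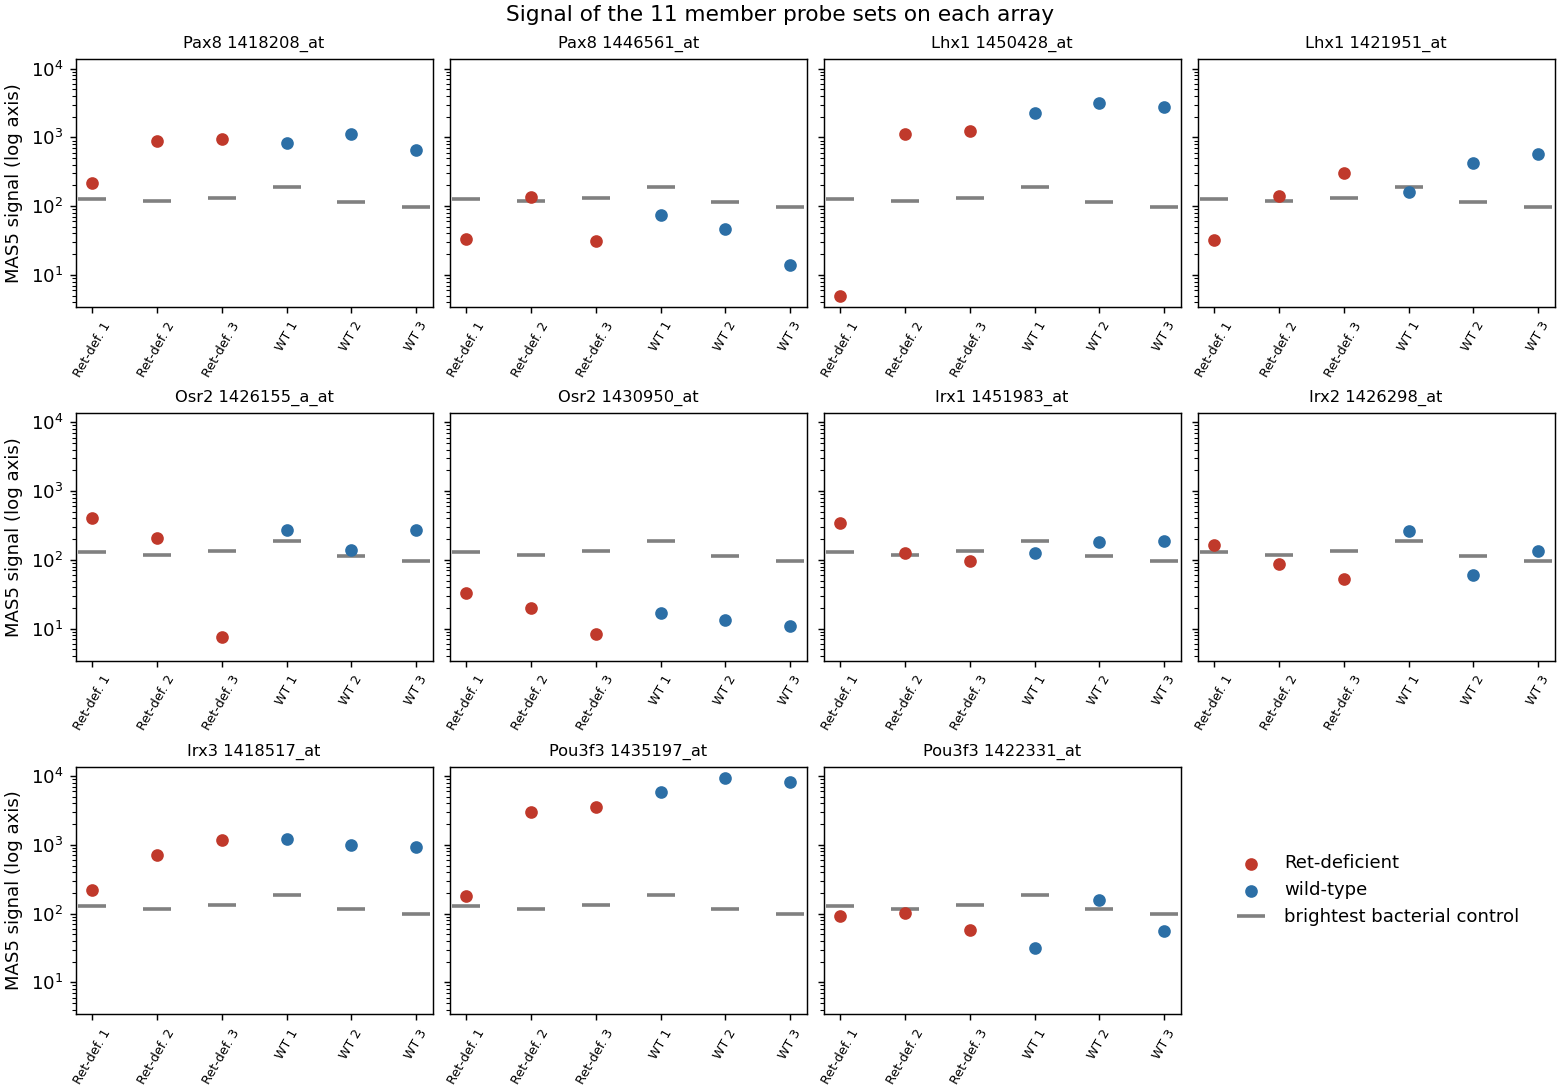
Signal of each of the 11 member probe sets (log axis) on the 3 Ret-deficient arrays (red) and the 3 wild-type arrays (blue), with the brightest bacterial control of each array as a grey dash. Lhx1 1450428_at and Pou3f3 1435197_at are lower in every Ret-deficient array than in any wild-type array, while Osr2, Irx1 and Irx2 lie near the controls.

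The size of the difference in Lhx1 and Pou3f3 came mainly from Ret-deficient kidney 1, and lower values were also found in the other two. Against the wild-type mean, Lhx1 stood at -4.24 or below in Ret-deficient kidney 1, a bound set by the bacterial control, and at -1.27 and -1.11 log2 units in kidneys 2 and 3, while the wild-type arrays lay between -0.27 and 0.22. Pou3f3 stood at -5.32, -1.34 and -1.09, with wild-type arrays between -0.37 and 0.29. With Ret-deficient kidney 1 left out, the log2 difference was -1.19 (SE 0.22) for Lhx1 and -1.22 (SE 0.26) for Pou3f3. Neither passed in that limma fit, which called 0.00444% of tested probe sets, with adjusted p = 0.834 for Lhx1 and adjusted p = 0.85 for Pou3f3 over all tested probe sets. Groups that do not overlap on all arrays cannot overlap once an array is left out. That comparison of 2 arrays with 3 therefore adds no evidence of separation for Lhx1 and Pou3f3. In it 10.7% of tested probe sets were lower with no overlap.

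The markers of the ureteric epithelium moved with these members in Ret-deficient kidney 1, and their median fell less than the members in the other kidneys. The median of the 13 markers above the brightness filter stood at -3.31, -0.25 and -0.71 log2 units from the wild-type mean in Ret-deficient kidneys 1, 2 and 3. Single markers varied around it in Ret-deficient kidney 2: Cldn3 stood at -1.02, Calb1 at -0.98, Cldn7 at -0.94 and Tfap2a at -0.64, against 0.95 for Wnt9b and 1.41 for Mal. Lhx1 and Pou3f3, at -1.27 and -1.34 there, were thus below these markers, but not far below the lowest of them, and the difference was not tested. In Ret-deficient kidney 3, Gata3 at -1.42, the keratin gene Krt19 at -1.345 and Tfap2a at -1.24 stood below Lhx1 and Pou3f3. These members stood at -1.11 and -1.09 there, and the other tested markers stood above them, up to 0.15 for Wnt9b. Among the markers, Gata3, a factor of the ureteric lineage, read 1408.8, 4008.8 and 1772.9 in Ret-deficient kidneys, against 4221.1 to 5236.5 in wild-type kidneys. The tight junction gene Cldn3 read 69.3, 342.5 and 378.4, against 651.5 to 784.4. Wnt7b, a Wnt ligand gene of the bud stalk, had the opposite sign but was not above the control on any array, at 67.5 to 99.8 in Ret-deficient and 6.9 to 24.4 in wild-type kidneys. None of the 13 tested markers passed the limma test. All 13 had a negative log2 difference, as had 5735 of the 11581 genes tested, and their median was -1.32. The groups did not overlap at 6 of the 13, beside 5.54% of all tested probe sets in the lower direction. Without Ret-deficient kidney 1 the median of the markers was -0.59. The part of the epithelium in the members' differences was not tested.

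Sox10 was lower in Ret-deficient kidneys with no overlap, as were 5.54% of all tested probe sets, and the other neural markers overlapped between the groups. The summed signal of 5 neural genes was 5847, 3240 and 4460 in Ret-deficient kidneys, against 8203 to 9694 in wild-type kidneys. Without Sox10 the sums overlapped, at 3579, 2140 and 2816 in Ret-deficient kidneys, against 2723, 4480 and 4841 in wild-type kidneys. Only Th was at or below the bacterial control on any array, in Ret-deficient kidney 3 and in wild-type kidneys 1 and 2. Sox10, a factor of neural crest and glia, read 2268.5, 1100.4 and 1644.2 in Ret-deficient kidneys, against 3361.8 to 6970.9 in wild-type kidneys. Among the 4 tested neural genes 3 had log2 differences below 0, the median over the 4 was -0.88, and none passed the limma test. Since Lhx1, Irx3 and Pou3f3 are also genes of the nervous system, these values stand beside theirs; a neural part in them was not tested.

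**Figure D2:**
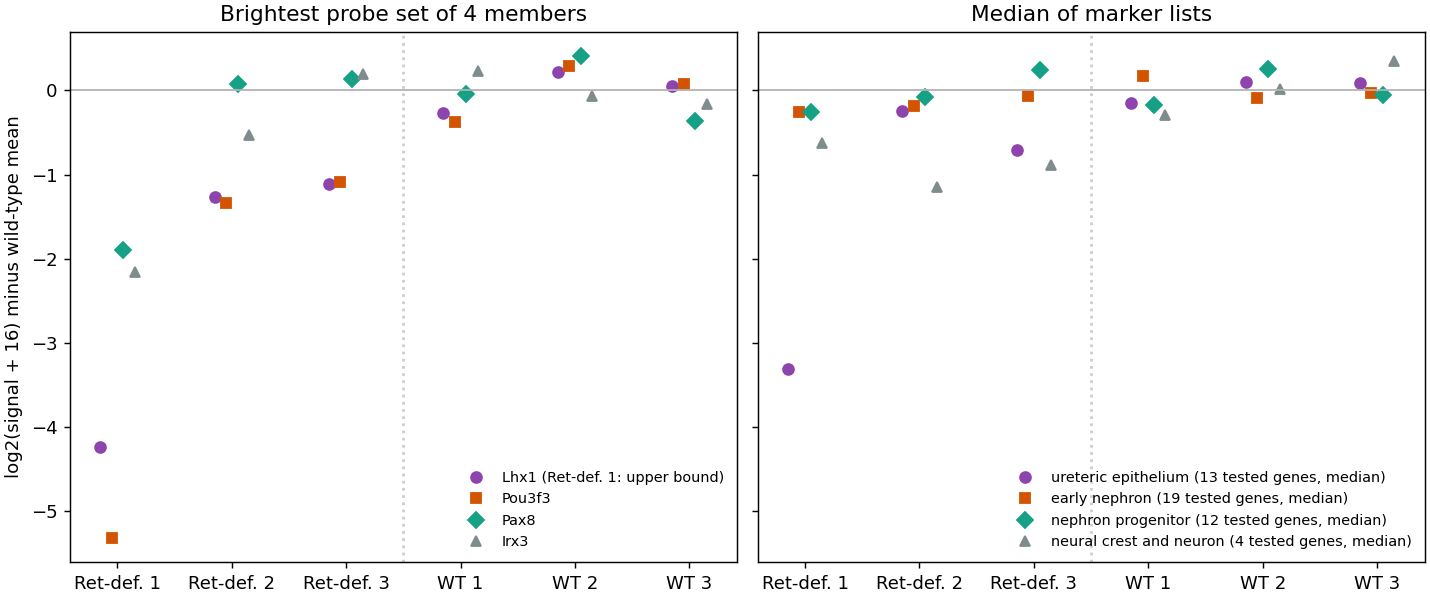
Distance from the wild-type mean on each array, in log2(signal + 16), for the brightest probe sets of Lhx1, Pou3f3, Pax8 and Irx3 (left) and for the median of the tested genes of 4 marker lists (right). The Lhx1 point of Ret-deficient kidney 1 is an upper bound, drawn at the level of the bacterial control. Ret-deficient kidney 1 stands lowest for all 4 members and for the ureteric epithelium, whereas Lhx1 and Pou3f3 are also more than 1 log2 unit below the wild-type mean in Ret-deficient kidneys 2 and 3.

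Pax8 and Irx3 were lower in Ret-deficient kidney 1 and overlapped the wild-type range or lay close to it in the other two. Pax8 (1418208_at) read 218.5, 898.4 and 940.4 in Ret-deficient kidneys 1, 2 and 3, against 825.8, 1135.8 and 662.5 in wild-type kidneys. The last 2 Ret-deficient values lay within the wild-type range. Its log2 difference of -0.56 (SE 0.56, 95% interval -1.88 to 0.76, adjusted p = 0.958 in limma) changed sign without Ret-deficient kidney 1, to 0.105 (SE 0.27). Irx3, an Iroquois homeodomain factor, read 221.2, 716.2 and 1190.5 in Ret-deficient kidneys, against 1221.9, 991.1 and 932.9 in wild-type kidneys. Here kidney 2 was below and kidney 3 within the wild-type range. The log2 difference of Irx3 was -0.83 (SE 0.56, 95% interval -2.16 to 0.49, adjusted p = 0.942 in limma), and -0.17 (SE 0.28) without Ret-deficient kidney 1. The intervals include both no difference and a difference below -1 log2 unit, so these arrays do not show that Pax8 or Irx3 was the same in the 2 genotypes.

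Both genes stood in the lowest part of Ret-deficient kidney 1. With signals raised to the bacterial control, 108 of the 22519 tested probe sets (0.48%) were as far below the wild-type mean there as Irx3, at -2.16 log2 units, and 178 (0.79%) as far as Pax8, at -1.89. The 4 members above the brightness filter varied more among Ret-deficient kidneys than among wild-type ones. The SD of log2 values was 1.76 in Ret-deficient and 0.24 in wild-type kidneys for Lhx1, with kidney 1 raised to its control, and 2.37 and 0.34 for Pou3f3, 1.20 and 0.20 for Irx3, and 1.15 and 0.38 for Pax8. The median over all tested probe sets was 0.267 in Ret-deficient and 0.245 in wild-type kidneys, so that Pou3f3 and Pax8 varied more than the median among wild-type kidneys too.

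Osr2, Irx1 and Irx2 were at or near background in both genotypes, and none of their differences was larger than the spread between replicates. These genes, with the dimmer probe sets of Pax8, Lhx1 and Pou3f3, fell below the brightness filter, so 4 of the 11 member probe sets entered the adjusted test. Osr2, an odd-skipped zinc finger factor, read 410.3, 205.1 and 7.6 in Ret-deficient kidneys and 269.9, 138.6 and 275.5 in wild-type kidneys at 1426155_a_at. It was above the bacterial control on 2 Ret-deficient and 3 wild-type arrays. The other Osr2 probe set (1430950_at) was not above the control on any array. Irx1 read 347.5, 125.1 and 95.7 in Ret-deficient and 126.4, 181.0 and 187.7 in wild-type kidneys, with a log2 difference of 0.00 (SE 0.48, 95% interval -1.17 to 1.17). Its highest value came from Ret-deficient kidney 1, the sample lowest in Lhx1. Irx2 read 163.9, 88.1 and 52.4 in Ret-deficient and 265.0, 61.0 and 133.4 in wild-type kidneys (log2 difference -0.45, SE 0.58, 95% interval -1.85 to 0.96). Exact two-sided permutation tests returned p = 0.8 for Osr2, p = 1.0 for Irx1 and p = 0.6 for Irx2.

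Probe sets of one gene did not always agree. The dimmer Lhx1 probe set (1421951_at) read 31.7, 140.5 and 298.9 in Ret-deficient and 158.2, 419.6 and 573.3 in wild-type kidneys. It had the same sign as the brighter one, with a log2 difference of -1.42 (SE 0.79), but the groups overlapped (exact permutation p = 0.2). The dimmer Pou3f3 probe set (1422331_at) read 57.6 to 102.6 in Ret-deficient and 31.8 to 157.5 in wild-type kidneys and was above the control on 1 of the 6 arrays. The dimmer Pax8 probe set (1446561_at) read 31.5 to 133.7 in Ret-deficient and 14.0 to 75.0 in wild-type kidneys and was likewise above the control on 1 array. Taking the brightest probe set of each of the 7 genes, 6 had a negative and 1 a positive log2 difference with a median of -0.83, beside a median of 0.003 over the 11581 genes tested and -0.024 over 18193 genes with or without the filter. Osr2, Irx1 and Irx2, near background, are among these 7, and the positive one is Irx1 at 0.001. The median was -0.445 with all probe sets of a gene averaged, -0.502 with a pseudocount of 64, and -1.71 over the 4 members above the filter.

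**Figure D3:**
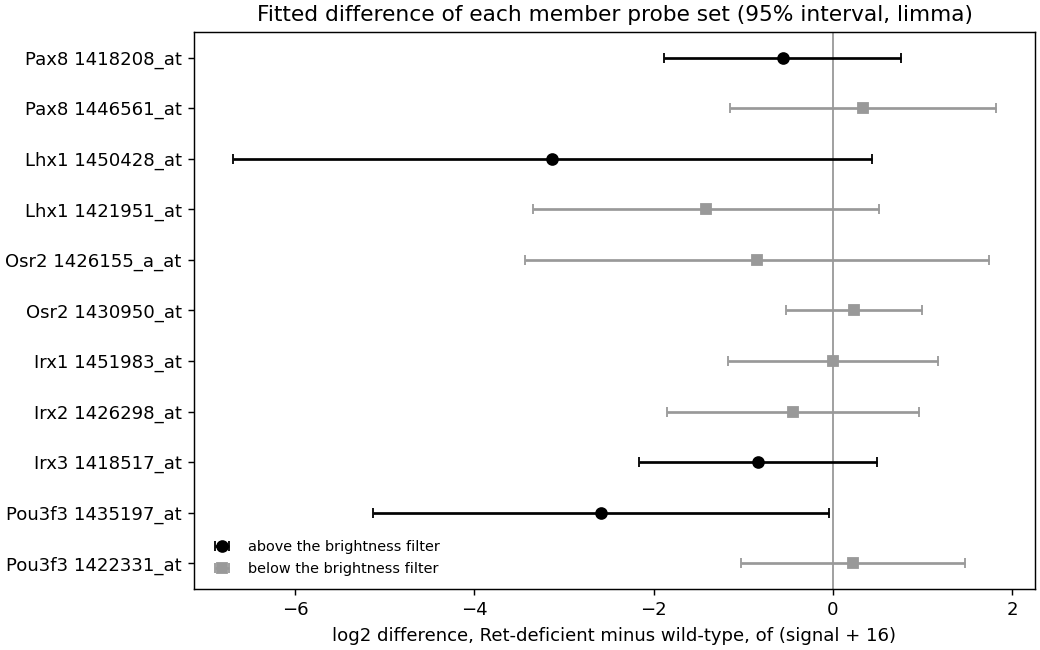
Log2 difference, Ret-deficient minus wild-type, of each member probe set with its 95% interval from limma, for probe sets above (black circles) and below (grey squares) the brightness filter. Of these intervals the one of Pou3f3 1435197_at, from -5.13 to -0.04, excludes 0 before adjustment over the array; the grey values rest largely on signals near or below the bacterial control.

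Across the 6 arrays the brightest probe sets of Lhx1 and Pou3f3 had a Pearson correlation of 0.996, as a description of 6 points that share array scaling and are spread mainly by Ret-deficient kidney 1. Among 11149 genes, those closest to Lhx1 were Esrp1, a splicing regulator of epithelial cells (r = 0.9998), the zinc finger gene Zfp113 (r = 0.9995) and Pou3f3. Esrp1 read 57.0, 4188.2 and 4617.4 in Ret-deficient kidneys 1, 2 and 3, against 8745.7 to 13048.9 in wild-type kidneys. With signals raised to the bacterial control, which changes Lhx1 and Esrp1 in Ret-deficient kidney 1, the correlation with Lhx1 was 0.9956 for Esrp1, 0.9839 for Zfp113 and 0.9976 for Pou3f3. Without that step the same genes, with Lhx1 in the place of Pou3f3, were closest to Pou3f3 (Esrp1 r = 0.9972, Zfp113 r = 0.9925). Closest to Irx3 were Kdm5a, a histone demethylase gene (r = 0.9952), the receptor phosphatase gene Ptprz1 (r = 0.9906) and Cep170b (r = 0.9902). Closest to Pax8 were Trim23 (r = 0.994), Phf8 (r = 0.9885) and Znhit6 (r = 0.9862). Trim23 read 2667.2, 3899.0 and 3983.1 in Ret-deficient kidneys, against 3502.2 to 4034.6 in wild-type kidneys, a narrower range than that of Pax8. The genes named as closest to each member were picked as the highest correlations among 11149 genes over the same 6 points. Shared regulation was not tested.

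As a list, other genes of the early nephron stood closer to the wild-type level than Lhx1 and Pou3f3; this difference was not tested. Of 27 listed genes of induced nephrons, 25 had a probe set and 19 were tested; none of the 19 passed the limma test (0% of all tested probe sets passed). Of these, 14 had a negative and 5 a positive log2 difference, with a median of -0.30 (-0.23 without Ret-deficient kidney 1), and the groups did not overlap at 3 lower genes and 1 higher gene (5.54% and 5.17% of all tested probe sets). The summed signal of the 25 genes was 93286, 99926 and 94088 in Ret-deficient kidneys, against 102698 to 109085 in wild-type kidneys. Wnt4, the signal that drives vesicle formation, read 897.9, 2169.8 and 1621.0 in Ret-deficient kidneys, against 1320.6, 2359.7 and 2366.9 in wild-type kidneys. The groups overlapped, with a log2 difference of -0.40 (SE 0.38). Greb1 read 2951.4, 2169.5 and 1322.3 in Ret-deficient kidneys, against 4227.2 to 6738.9 in wild-type kidneys. In Greb1 Ret-deficient kidney 1 was the highest of its group, unlike in Lhx1. Itga3, an integrin subunit gene, was lower with no overlap (log2 difference -0.86), and Bmper, a BMP-binding regulator gene, was higher (log2 difference 0.36).

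**Figure D4:**
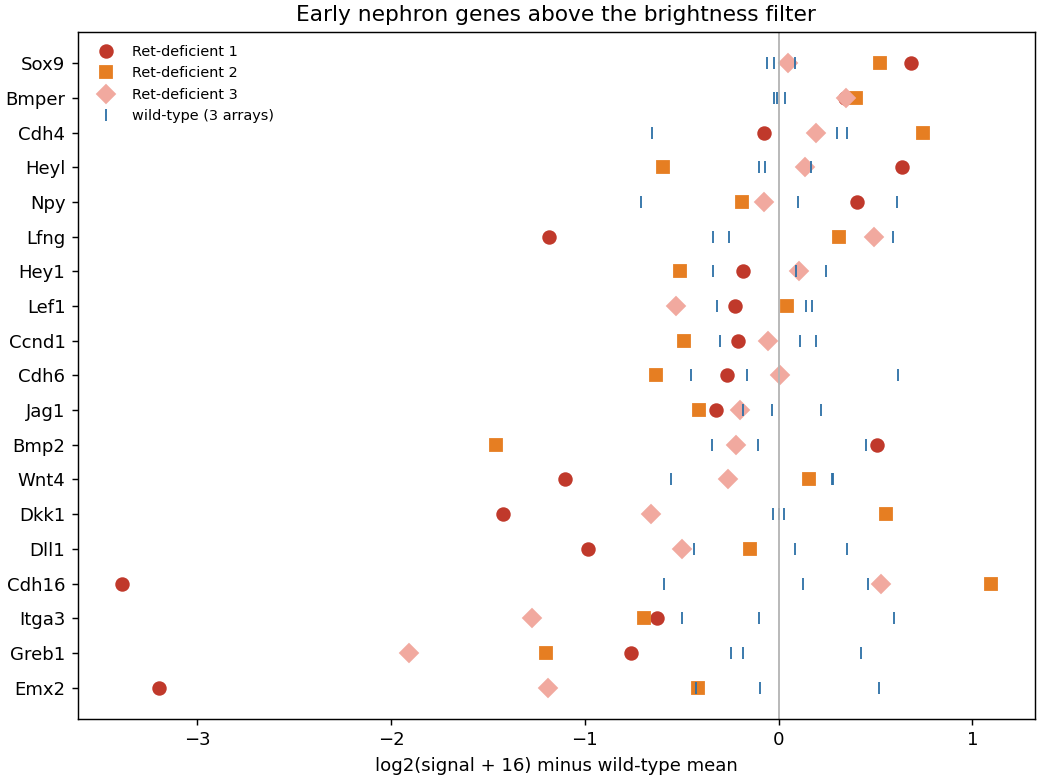
The 19 tested early nephron genes, ordered by log2 difference with the highest at the top, each as distance from its wild-type mean in log2(signal + 16) for Ret-deficient kidneys 1, 2 and 3 and the 3 wild-type kidneys. Cdh16 and Emx2 lie more than 3 log2 units below the wild-type mean in Ret-deficient kidney 1, while Greb1 is lowest in Ret-deficient kidney 3.

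Emx2 and Cdh16, chosen after their values were seen, are the list's members lowest in Ret-deficient kidney 1 relative to the wild-type mean, and both are also expressed in the ureteric epithelium. Emx2, a homeodomain factor, read 863.1, 6021.7 and 3514.9 in Ret-deficient kidneys, against 5972.5 to 11532.2 in wild-type kidneys. Cdh16, which encodes kidney-specific cadherin, read 99.9, 2582.9 and 1738.5, against 792.1 to 1658.3, so that it was above every wild-type value in Ret-deficient kidneys 2 and 3.

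The Notch pathway and segment genes of the nephron had small differences. Of 12 listed genes 10 were tested and none passed the limma test. Negative log2 differences were found for 7 and positive ones for 3 (median -0.18). Jag1, a Notch ligand gene, read 11088.8, 10425.1 and 12043.7 in Ret-deficient kidneys, against 12182.4 to 16093.5 in wild-type kidneys. The receptor gene Notch1 read 5945.3, 4616.8 and 4992.0 in Ret-deficient kidneys, against 3524.0 to 4325.3 in wild-type kidneys. In both genes the groups did not overlap, with log2 differences of -0.31 for Jag1 and 0.40 for Notch1. Over the whole array this held for 5.54% of tested probe sets in the lower and 5.17% in the higher direction.

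Partners and targets of the Pax factors and Lhx1 were split in sign as a list. Of 20 listed genes, Ret among them, 18 were tested. The log2 difference was below 0 for 10 and above 0 for 8 (median -0.03), and none passed the limma test. The groups did not overlap at 4 lower genes (Ret, Gdnf, Six4 and Gata3) and 1 higher gene, beside 5.54% and 5.17% of all tested probe sets. The same 4 lower genes, and 0 higher ones, had an unadjusted p under 0.05 in limma, which 5.37% of tested probe sets reached. Six4, a homeodomain partner of Eya factors, read 4598.5, 4266.8 and 4375.5 in Ret-deficient kidneys, against 6705.8, 6818.0 and 6327.5 in wild-type kidneys. Its groups did not overlap and its log2 difference was -0.58 (SE 0.15). Gdnf, a target of Pax2 and the ligand of Ret, read 1772.2, 1697.5 and 1799.9 in Ret-deficient kidneys, against 2776.7 to 4442.3 in wild-type kidneys.

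The nephron progenitors, from which the early nephron forms, stood near the wild-type level. Among 12 tested progenitor genes 7 lay below and 5 above their wild-type mean (median log2 difference -0.02), and none passed the limma test. Their median gene stood at -0.26, -0.08 and 0.24 log2 units from the wild-type mean in Ret-deficient kidneys 1, 2 and 3. Besides Gdnf, the groups did not overlap at Tmem100, which was lower (log2 difference -0.78), and at the Wnt agonist gene Rspo1, which was higher (0.64). Over all tested probe sets, 5.54% were lower and 5.17% higher with no overlap. Six2, a factor that maintains the progenitors, read 1209.2, 1186.5 and 1517.1 in Ret-deficient kidneys, against 990.9, 1830.1 and 1231.6 in wild-type kidneys. In Ret-deficient kidney 1 Six2 was therefore within the wild-type range while Lhx1, Pou3f3, Pax8 and Irx3 were below it.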

How the data were processed

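The arrays, 3 Ret-deficient and 3 wild-type, were grouped by title. The deposited values are probe set intensities made by the authors with MAS5, per the submitters' processing notes; the sources used here give neither its version nor detection calls. Values were used as log2(value + 16) with no further normalization, since array medians differed by 0.42 log2 units, under the limit of 0.5. After removal of 64 control probe sets, the 22519 probe sets at or above the median of mean log2 values were tested with limma 3.58.1 in R 4.3.3 (Ret-deficient minus wild-type, no covariates, Benjamini-Hochberg over all tested probe sets, threshold 0.05). Members below that filter take their values from a fit without it and have no adjusted p. A gene of a list is represented by its probe set with the highest mean log2 value. Symbols were updated by gene ID (99.42% of 34958 probe sets with 1 symbol; 932 had several and 9211 none). The bacterial controls serve as a gauge of background in place of detection calls. Precision is limited by the number of arrays.

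Members and lists were chosen with earlier results of these data known. Named genes are all member probe sets, Ret, Wnt4 and Six2, up to 3 genes of each list with the smallest p among those whose groups do not overlap, and the 3 genes with the highest Pearson correlation with each tested member (clone names left out). Beyond that rule Emx2, Cdh16, Pax1, Pax9, Calb1, Cldn7, Tfap2a, Wnt9b, Mal, Krt19, Col2a1, Actc1, Matn1 and Th were named after their values were seen. The lists were ureteric epithelium, bud tip, nephron progenitor, early nephron, Pax and Lhx1 partners and targets, Notch segmentation, family paralogs, neural crest and neuron, renal stroma, macrophage, erythroid, endothelium, muscle and cartilage, and gonad and adrenal. A listed gene is not reported here. The labels do not say whether replicate numbers pair the samples, and no pairing was used in the main fit. Deviations from the group means correlated at 0.031, -0.042 and -0.12 for same-numbered kidneys 1, 2 and 3. Differently numbered kidneys correlated at -0.188 to 0.214. With 3 arrays per group these correlations cannot decide whether the numbers pair the samples. The limma test was checked on values simulated for the 22519 probe sets with their own spread. A change of 1 log2 unit was recovered in 22.4% of 67 probe sets, one of 2 units in 55.2% of 67 and one of 4 units in 90.9% of 66, beside 6 false calls. The simulation gave both groups the same normal spread, whereas the tested members varied more among Ret-deficient kidneys. Ret, at -5.425 log2 units, did not pass in the real data, so these shares may overstate what the test can call here. Alternatives covered the pseudocount, brightness filter, normalization, variance trend, array weights, replicate block, use of all probe sets of a gene, and each array left out; leaving Ret-deficient kidney 1 out of the lists and raising signals to the bacterial control were added after seeing the data.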

Additional observations from a re-analysis of the deposited data

How the results depend on the processing

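No member passed an adjusted p of 0.05 in limma under any alternative run. Across the 16 alternatives the brighter Lhx1 probe set had a log2 difference of -4.14 to -1.19 and that of Pou3f3 -3.33 to -1.22. In limma the adjusted p was 0.401 to 0.9996 for Lhx1 and 0.37 to 0.999 for Pou3f3. With the brightest 30 percent of probe sets Lhx1 fell below the filter and had no adjusted p. Irx3 ranged from -1.34 to -0.17 and Pax8 from -0.909 to 0.105, with each array left out in turn. Signs also changed for dim probe sets, mostly read at or near the bacterial control, from which no change is read; the cause was not tested. With signals raised to the bacterial control, Osr2 1426155_a_at had 0.043, Osr2 1430950_at -0.023, Irx1 -0.029 and Pou3f3 1422331_at -0.159. With array quality weights Irx1 had -0.045, Irx2 0.073 and Pou3f3 1422331_at -0.184, and with a pseudocount of 1 Irx1 had -0.014. With 1 array left out the ranges were -0.51 to 0.341 for Irx1, -0.916 to 0.018 for Irx2, -1.70 to 0.389 for Osr2 1426155_a_at, -0.005 to 0.495 for Osr2 1430950_at, -0.208 to 0.691 for Pax8 1446561_at and -0.182 to 0.748 for Pou3f3 1422331_at. The median over the 7 members ranged from -0.98 to -0.70 with 1 array left out and was -0.445 with all probe sets of a gene averaged, -0.502 with a pseudocount of 64 and -0.561 with signals raised to the control. Over the whole array, 0 probe sets passed the adjusted threshold and 1209 an unadjusted p of 0.05. Median centring and an intensity trend each gave 1 adjusted call, and leaving 1 array out gave 0 to 1. The unadjusted count was 2265 without the brightness filter, 723 with the brightest 30 percent of probe sets, 2533 with array quality weights and 838 to 2140 with 1 array left out. Groups did not overlap at 2412 probe sets, and at 4585 without the filter, 1420 in the brightest 30 percent and 3642 to 6434 with 1 array left out. These changes follow in part from the number of probe sets or arrays entering each count. With the replicate block the adjusted count was 0 and the unadjusted count 1141. The block left the log2 differences of the members as they were but changed their SE. The SE went from 1.499 to 1.143 for Lhx1 1450428_at, from 0.793 to 0.319 for Lhx1 1421951_at and from 1.069 to 0.762 for Pou3f3 1435197_at. For Irx1 it rose from 0.481 to 0.53. Median centring moved the median log2 difference of all tested probe sets by 0.11 and the share of higher among unadjusted calls to 68.5%, against 49.0%.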

Other observations

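Among 21 relatives of the members (other Pax, Lhx, Irx, Osr and Pou3f genes) 5 were bright enough to be tested. None passed the limma test. Of these 5, 4 had a negative and 1 a positive log2 difference, with a median of -0.46. Over all 21, dim ones included, the median was 0.04. Pou3f2, a close relative of Pou3f3, read 1607.0, 659.6 and 368.5 in Ret-deficient kidneys, against 1630.4 to 3304.7 in wild-type kidneys. The groups of Pou3f2 did not overlap, though Ret-deficient kidney 1 was just under the lowest wild-type value. Lower values with no overlap were found at 5.54% of all tested probe sets. The lowest value of Pou3f2 came from Ret-deficient kidney 3, whereas the lowest of Pou3f3 came from kidney 1. Lhx8 was below the brightness filter and read 5.4, 65.7 and 8.8 in Ret-deficient kidneys, none above the bacterial control, against 332.1, 731.5 and 633.8 in wild-type kidneys, all above it.

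Pax1 and Pax9, chosen after their values were seen, mark the sclerotome and pharyngeal pouches and were highest in the sample numbered 1 of each genotype. Pax1 (1449359_at) read 16694.9, 9.1 and 10.2 in Ret-deficient kidneys 1, 2 and 3, and 1513.4, 18.1 and 144.8 in wild-type kidneys. It was below the brightness filter, and above the bacterial control on 1 Ret-deficient and 2 wild-type arrays. Pax9 read 4347.9, 354.3 and 126.1 in Ret-deficient kidneys, and 2161.9, 568.3 and 1051.6 in wild-type kidneys. Ret-deficient kidney 1, the highest in both, was also the lowest in Lhx1, Pou3f3, Pax8 and Irx3. The 6 markers of muscle and cartilage summed to 31970, 15512 and 13603 in Ret-deficient kidneys 1, 2 and 3, and to 20677, 11278 and 15422 in wild-type kidneys. Col2a1 alone read 23932.5 in Ret-deficient kidney 1, most of its sum. The 6 markers did not move together: Actc1 was highest in wild-type kidney 1 (13071.5), and Matn1 was lowest in Ret-deficient kidney 1 (91.6). Myod1, a muscle factor below the brightness filter, read 245.4, 152.8 and 158.1 in Ret-deficient kidneys, all above the bacterial control. In wild-type kidneys Myod1 read 27.6, 25.0 and 80.7, none above it. The part of tissue outside the kidney in these values was not tested.

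None of the tested genes of the other cell types passed the limma test. The median log2 difference was 0.24 over 8 genes of the renal stroma, where Foxd1, a factor of stromal progenitors, read 11832.8, 7814.6 and 18372.4 in Ret-deficient kidneys, against 4632.8 to 7314.5 in wild-type kidneys. Dcn, which encodes decorin, was likewise higher with no overlap (log2 difference 1.20). Higher values with no overlap were found at 2 of the 8 stromal genes, beside 5.17% of all tested probe sets. The median was -0.19 over 6 endothelial genes, 0.04 over 4 erythroid genes and 0.53 over 4 macrophage genes. Over 5 bud tip genes, Ret included, it was -0.29. Of the gonad and adrenal list 1 of 6 genes was tested, at -0.38, while the untested Cyp11a1 of that list read 147.7 to 190.4 in Ret-deficient and 234.7 to 297.6 in wild-type kidneys, and of the muscle and cartilage list 2 of 6, with a median of 0.47.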
